A study of Mus musculus with 12 samples.

Results

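The transcripts of 10 apolipoprotein genes, Apoa1, Apoa2, Apoa4, Apoa5, Apob, Apoc1, Apoc2, Apoc3, Apoe and Apoh, were examined in mouse liver. They were chosen by gene symbol, as 10 of the 35275 genes in the deposited count table, and all 10 were among the 12378 genes left by a filter on low counts. Livers of male C57Bl/6J mice on a diet with 0.5% norUDCA gave 6 libraries (replicates 9, 10, 11, 12, 13 and 20), and livers of male C57Bl/6J mice on chow gave 6 (replicates 2, 3, 7, 8, 16 and 17). Mice were 13 weeks old and ate either diet for 1 week. All library titles carry the mark WT (wild type). The bile acid norUDCA (norursodeoxycholic acid) resembles ursodeoxycholic acid but has a shortened side chain. The diets were compared to find which liver transcripts differ with norUDCA feeding. Whether each library stands for its own animal is not stated in the labels, so p-values measure the spread between these libraries, which may be technical.

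Apolipoproteins are the protein part of lipoproteins, the particles that carry triglyceride and cholesterol in blood. Hepatocytes secrete very low density lipoproteins built on apoB, and they secrete apoA-I and apoA-II, which form high density lipoprotein (HDL). The C group, apoE, apoA-IV and apoA-V move between particles and help set how fast lipase and receptors remove them.

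Between norUDCA-fed and chow-fed mice, 5 of the 10 transcripts differed, and the changes did not go the same way. Apoa4, Apoa1, Apob and Apoc3 fell in norUDCA-fed mice by 0.98, 0.55, 0.35 and 0.31 on the log2 scale, and Apoa2 rose by 0.41. Apoa5, Apoc1, Apoc2, Apoe and Apoh did not pass the test, which was edgeR's quasi-likelihood test with a Benjamini-Hochberg adjusted p under 0.05 over all genes tested. By the same test 15.3% of all tested genes passed, 6.73% higher and 8.62% lower with norUDCA. The median log2 fold change of the 10 transcripts was -0.07, against -0.00 over all tested genes.

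The data behind these values were read counts per gene. Total counts ran from 14065837 to 15342922 in the norUDCA libraries and from 12209706 to 13715026 in the chow libraries, so that every norUDCA library was deeper. Levels are given as CPM, that is, counts brought to the same library size by TMM factors, a method which assumes that most genes do not differ. Scaling by total counts instead moved the median of all genes by 0.15 on the log2 scale, and then Apob and Apoc3 no longer passed and Apoh did. Of all called genes 81.2% were then higher, against 43.8% with TMM. Chow 2 stood apart from the other chow libraries. It had 9776 CPM of the acute-phase transcript Saa1, against 526 to 4114 CPM in the other chow libraries, and among the chow libraries it was the lowest for 6 of the 10 apolipoprotein transcripts and the highest for 3. Without it Apoa2 (log2 fold change 0.33, adjusted p = 0.0632) and Apob (-0.32, adjusted p = 0.0626) no longer passed edgeR's test, whereas Apoa1, Apoa4 and Apoc3 did. In bulk liver fewer cells of a type and less RNA per cell cannot be told apart.

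**Figure D1:**
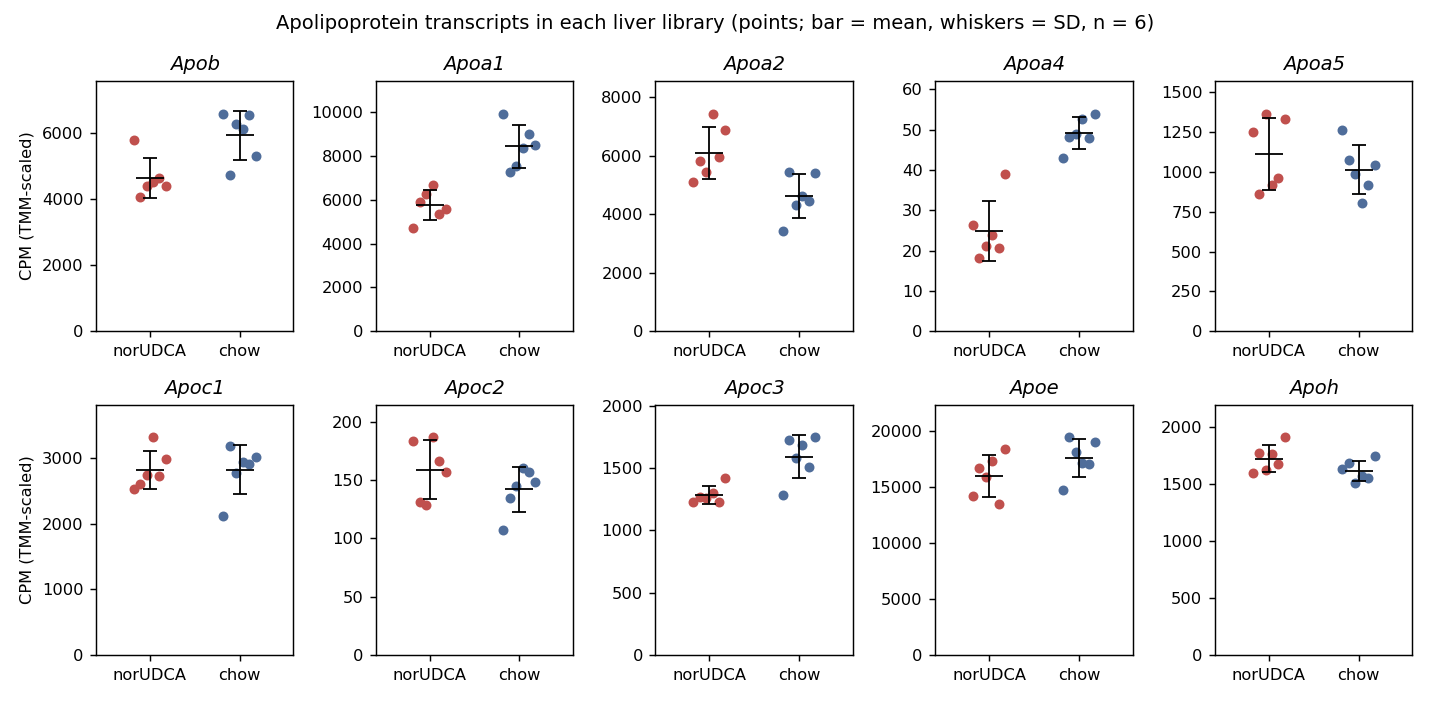
Level of each of the 10 apolipoprotein transcripts in CPM (TMM-scaled; linear axes from 0) in the 6 norUDCA and 6 chow libraries, with the mean as a bar and the SD as whiskers. The norUDCA libraries of Apoa1 and Apoa4 lie below all chow libraries, 5 of 6 norUDCA libraries of Apoa2 lie above them, and the points of Apoe, Apoc1, Apoc2, Apoa5 and Apoh overlap.

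The promoter windows of the called genes are shown because these transcripts moved together or apart, and because the windows show what sequence stands in front of each. They are RefSeq sequences on GRCm38.p6, from 250 bases before to 50 bases after the gene start, all on the plus strand. All other positions are those of the deposited table, for which the sources used here name no build. RefSeq windows were found for 8 of the 10 genes, and the 4 called genes with the smallest p that had a window are given. Capitals mark matches to the motifs searched.
Apoa4 (chr9:46240594-46240893): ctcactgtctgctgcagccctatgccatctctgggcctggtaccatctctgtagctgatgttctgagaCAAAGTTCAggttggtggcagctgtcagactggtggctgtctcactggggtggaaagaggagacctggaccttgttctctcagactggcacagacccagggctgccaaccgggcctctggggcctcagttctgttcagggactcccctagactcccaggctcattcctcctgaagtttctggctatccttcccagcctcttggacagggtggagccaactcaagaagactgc
Apoa1 (chr9:46228380-46228679): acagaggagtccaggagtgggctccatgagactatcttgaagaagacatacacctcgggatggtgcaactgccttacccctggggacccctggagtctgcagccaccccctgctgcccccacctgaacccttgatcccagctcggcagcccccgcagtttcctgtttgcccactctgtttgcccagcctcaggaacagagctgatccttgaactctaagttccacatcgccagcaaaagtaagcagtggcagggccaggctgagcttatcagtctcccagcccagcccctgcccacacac
Apob (chr12:7977427-7977726): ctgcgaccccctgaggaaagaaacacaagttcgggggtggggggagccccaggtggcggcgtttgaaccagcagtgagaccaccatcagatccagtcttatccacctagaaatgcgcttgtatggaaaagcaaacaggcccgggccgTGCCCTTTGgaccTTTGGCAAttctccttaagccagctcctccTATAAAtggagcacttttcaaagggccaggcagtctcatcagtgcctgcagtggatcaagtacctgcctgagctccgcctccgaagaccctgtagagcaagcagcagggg
Apoa2 (chr1:171224804-171225103): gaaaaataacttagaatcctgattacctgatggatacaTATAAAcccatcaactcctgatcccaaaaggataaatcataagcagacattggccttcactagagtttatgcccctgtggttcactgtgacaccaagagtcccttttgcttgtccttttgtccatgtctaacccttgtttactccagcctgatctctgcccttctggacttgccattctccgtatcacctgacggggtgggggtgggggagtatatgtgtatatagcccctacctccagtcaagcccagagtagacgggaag

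The motifs, searched on both strands, were CAAAGNNCA (a core of sites of the hepatocyte factor HNF4), TTGCNNAA (a core of C/EBP sites) and TATAAA (the TATA box), and no matches overlapped in these windows. The Apoa4 window held CAAAGTTCA at position -182 from the RefSeq start. The Apob window held TGCCCTTTG, the HNF4-type core on the other strand, at -103, a C/EBP match, TTTGGCAA, at -90 and TATAAA at -60. In the Apoa2 window the letters TATAAA stood at -212, and the Apoa1 window held no match. Of 32851 promoter windows of this length, 6.36% held the HNF4-type core, 10.8% the C/EBP core and 13.6% the letters TATAAA. A match is a description of the letters only. The RefSeq start of Apoa4 lies 148 bases inside the gene model of the deposited table, that of Apoa1 50 bases and that of Apob 29 bases.

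The transcripts of the HDL proteins moved in opposite directions. Apoa1 (ENSMUSG00000032083, chromosome 9, 46228580 to 46230466, plus strand) encodes apoA-I, the main protein of HDL and a cofactor of the cholesterol-esterifying enzyme LCAT. It had 4722 CPM in the lowest, 5751 CPM in the median and 6675 CPM in the highest norUDCA library, against 7290, 8454 and 9943 CPM in chow. Every norUDCA library was below every chow library, as in 4.07% of all tested genes. Of the 10 transcripts, Apoa1 and Apoa4 had no overlap between the diets, and 7.66% of all tested genes had none in either direction. The means were 5755 ± 695 CPM with norUDCA and 8449 ± 971 CPM on chow (SD, n = 6 each), a log2 fold change of -0.55 ± 0.11 (SE; edgeR adjusted p = 0.00357).

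Apoa2 (ENSMUSG00000005681, chromosome 1, 171225054 to 171226379, plus strand) encodes apoA-II, the other structural protein of HDL. The lowest, median and highest norUDCA libraries read 5086, 5883 and 7431 CPM, against 3413, 4548 and 5425 CPM on chow. All 6 norUDCA libraries were above the chow mean, and 5 of 6 were above every chow library. The mean rose 1.32-fold, to 6101 ± 889 CPM with norUDCA against 4606 ± 753 CPM on chow (SD, n = 6 each; log2 fold change 0.41 ± 0.13, SE; edgeR adjusted p = 0.0461). This call was near the threshold: it was lost in 9 of the 12 fits that left out a single library (log2 fold change 0.33 to 0.47, adjusted p 0.0324 to 0.0986).

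The ratio of the 2 HDL transcripts within a library does not depend on scaling. Apoa2 over Apoa1 read counts stood at 0.865 in the lowest, 1.09 in the median and 1.23 in the highest norUDCA library, against 0.343, 0.562 and 0.744 on chow. The groups did not overlap, and the lowest chow value was that of chow 2. The mean log2 ratio was 0.97 higher with norUDCA, a 1.95-fold difference (two-sided exact permutation test over all regroupings of the libraries, p = 0.00216, the smallest they can give; adjusted p = 0.00794 over 11 ratios). Without chow 2 the difference was 0.83 (adjusted p = 0.0119), and over all fits that left out a library it stayed between 0.83 and 1.06 and passed in each of the 12.

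Each other member was set against Apoa1 in the same way. Apoc2 over Apoa1 and Apoh over Apoa1 were also higher in every norUDCA library than in any chow library, by 0.71 and 0.65 on the log2 scale (exact permutation, adjusted p = 0.00794 for each). Apoc1 (0.56, adjusted p = 0.0119), Apoa5 (0.68, adjusted p = 0.0143) and Apoe (0.42, adjusted p = 0.0198) rose relative to Apoa1 with some overlap of the libraries, by the same exact permutation test. Apoa4, Apoc3 and Apob relative to Apoa1 differed by -0.47, 0.25 and 0.20 on the log2 scale and did not pass (exact permutation, adjusted p = 0.0816, 0.114 and 0.199). Apoa1 is the denominator of all 9 of these ratios, so they are not independent of each other or of the fall of Apoa1. Apoc2, Apoh, Apoc1, Apoa5 and Apoe did not pass edgeR's test on their own. Apoc1 over Apoe and Apoc2 over Apoe, pairs from the same gene cluster, differed by 0.14 and 0.30 (exact permutation, adjusted p = 0.0952 for each), and neither passed.

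**Figure D2:**
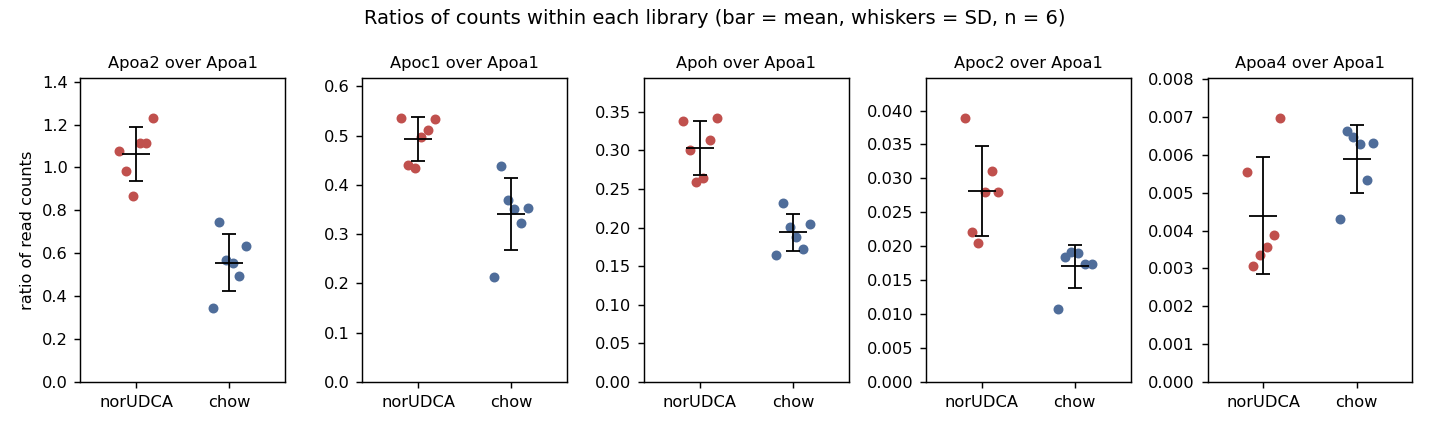
Ratio of read counts of 5 apolipoprotein transcripts to Apoa1 within each library (linear axes from 0; points are libraries, the bar is the mean and whiskers the SD of 6). The norUDCA libraries lie at 0.865 to 1.23 for Apoa2 over Apoa1, all above the chow libraries at 0.343 to 0.744, while the points of Apoa4 over Apoa1 overlap.

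Of Apoa4 and Apoa5, only Apoa4 passed the test. Apoa4 (ENSMUSG00000032080, chromosome 9, 46240696 to 46243459, plus strand) encodes apoA-IV, a protein of chylomicrons and HDL that enterocytes also make in quantity. Its level in liver was low, with 270 to 631 counts in norUDCA libraries and 514 to 693 counts in chow libraries. The lowest, median and highest norUDCA libraries had 18.1, 22.5 and 39.0 CPM, against 42.9, 48.6 and 54.0 CPM on chow. The diets did not overlap, and the highest norUDCA library, norUDCA 20, came closest to chow. The mean was 24.8 ± 7.50 CPM with norUDCA and 49.1 ± 3.91 CPM on chow (SD, n = 6 each), a log2 fold change of -0.98 ± 0.15 (SE; edgeR adjusted p = 0.000648), or a level 1.98-fold higher on chow. The call was kept in each of the 12 fits without a library (-1.15 to -0.89). Of the 6 enterocyte markers counted, Sis, Alpi and Cdx2 had 0 counts in every library, Vil1 had at most 7 and Lct at most 3. The enterocyte fatty acid-binding protein gene Fabp2 was read at 29.8 to 44.0 CPM with norUDCA and 25.9 to 57.1 CPM on chow, and did not pass (log2 fold change -0.06, adjusted p = 0.857). The part of enterocyte RNA in the Apoa4 counts was not tested.

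Apoa5 (ENSMUSG00000032079, chromosome 9, 46268633 to 46271919, plus strand) encodes apoA-V, which promotes triglyceride hydrolysis by lipoprotein lipase. It averaged 1115 ± 227 CPM with norUDCA and 1015 ± 155 CPM on chow (SD, n = 6 each). The libraries were spread over 859 to 1366 CPM with norUDCA and 804 to 1261 CPM on chow, 3 of the 6 norUDCA libraries being above the chow mean. The log2 fold change was 0.13 with a 95% interval of -0.16 to 0.43 (edgeR adjusted p = 0.555).

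Apob (ENSMUSG00000020609, chromosome 12, 7977648 to 8016835, plus strand) encodes the large structural protein of very low density lipoproteins and chylomicrons. The norUDCA libraries ranged over 4054, 4455 and 5775 CPM (lowest, median and highest), against 4724, 6189 and 6572 CPM on chow. All but norUDCA 9, at 5775 CPM, were below every chow library, and all 6 were below the chow mean. Apob averaged 4630 ± 594 CPM with norUDCA and 5914 ± 747 CPM on chow (SD, n = 6 each; log2 fold change -0.35 ± 0.11, SE; edgeR adjusted p = 0.0451). In fits without a library the value was -0.41 to -0.30, and it passed in 3 of 12 (adjusted p 0.0166 to 0.107). It passed without norUDCA 9, chow 3 or chow 17.

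The C apolipoproteins adjust lipolysis of triglyceride-rich particles. Apoc3 (ENSMUSG00000032081, chromosome 9, 46232933 to 46235636, minus strand) encodes apoC-III, an inhibitor of lipoprotein lipase and of the uptake of remnant particles. It had 1227 CPM in the lowest, 1265 CPM in the median and 1423 CPM in the highest norUDCA library, against 1288, 1634 and 1747 CPM on chow. Chow 2 was the lowest chow library and lay inside the norUDCA range, and 4 of the 6 norUDCA libraries were below it. The mean fell to 1285 ± 73.3 CPM with norUDCA, against 1590 ± 173 CPM on chow (SD, n = 6 each; log2 fold change -0.31 ± 0.085, SE; edgeR adjusted p = 0.0254). Without chow 2 the log2 fold change was -0.36 (adjusted p = 0.00385). The call was kept in 4 of the 12 fits without a library.

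Apoc1 and Apoc2 did not pass. Apoc1 (ENSMUSG00000040564, chromosome 7, 19689484 to 19692658, minus strand), whose product inhibits the cholesteryl ester transfer protein in human plasma, averaged 2818 ± 291 CPM with norUDCA and 2823 ± 373 CPM on chow (SD, n = 6 each). Its log2 fold change was -0.00 with a 95% interval of -0.23 to 0.22 (edgeR adjusted p = 0.991). Apoc2 (ENSMUSG00000002992, chromosome 7, 19671579 to 19681423, minus strand) encodes apoC-II, the activator of lipoprotein lipase. It averaged 159 ± 25.0 CPM with norUDCA and 142 ± 19.3 CPM on chow (SD, n = 6 each), and 3 of 6 norUDCA libraries were above every chow library. The log2 fold change was 0.16, with a 95% interval of -0.08 to 0.41 (edgeR adjusted p = 0.379). The genomic span of Apoc2 shares 3323 bases, introns included, with that of Apoc4 on the same strand. Reads of Apoc2 may therefore have been divided between the 2 genes, and shared exon bases were not counted. Apoc2 and Apoc4 together read 297 ± 28.2 CPM with norUDCA and 301 ± 43.9 CPM on chow (SD, n = 6 each).

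Apoe (ENSMUSG00000002985, chromosome 7, 19696109 to 19699166, minus strand) encodes apoE, the ligand by which remnant particles bind the LDL receptor and LRP1. It took the most counts of the 10 transcripts, a total that also depends on transcript length. The norUDCA libraries had 13463, 16261 and 18325 CPM (lowest, median and highest), against 14670, 17573 and 19400 CPM on chow. Of the 6 norUDCA libraries, 5 were below the chow mean. Apoe averaged 15963 ± 1866 CPM with norUDCA and 17542 ± 1706 CPM on chow (SD, n = 6 each), a log2 fold change of -0.14 with a 95% interval of -0.37 to 0.10 (edgeR adjusted p = 0.442). Scaled by total counts it was 0.01, of the opposite sign.

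Apoh (ENSMUSG00000000049, chromosome 11, 108343354 to 108414396, plus strand) encodes beta-2-glycoprotein I, a phospholipid-binding plasma protein. It averaged 1725 ± 117 CPM with norUDCA and 1618 ± 89.0 CPM on chow (SD, n = 6 each), with 5 of 6 norUDCA libraries above the chow mean. The log2 fold change was 0.09 with a 95% interval of -0.06 to 0.25 (edgeR adjusted p = 0.433). Scaled by total counts it was 0.24 and passed (adjusted p = 0.0309). The genomic span of Apoh overlaps by 575 bases that of Prkca, a protein-coding gene on the opposite strand. Prkca had 190 to 234 counts in the norUDCA libraries and 106 to 163 counts in the chow libraries, against 17750 to 30923 counts of Apoh.

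**Figure D3:**
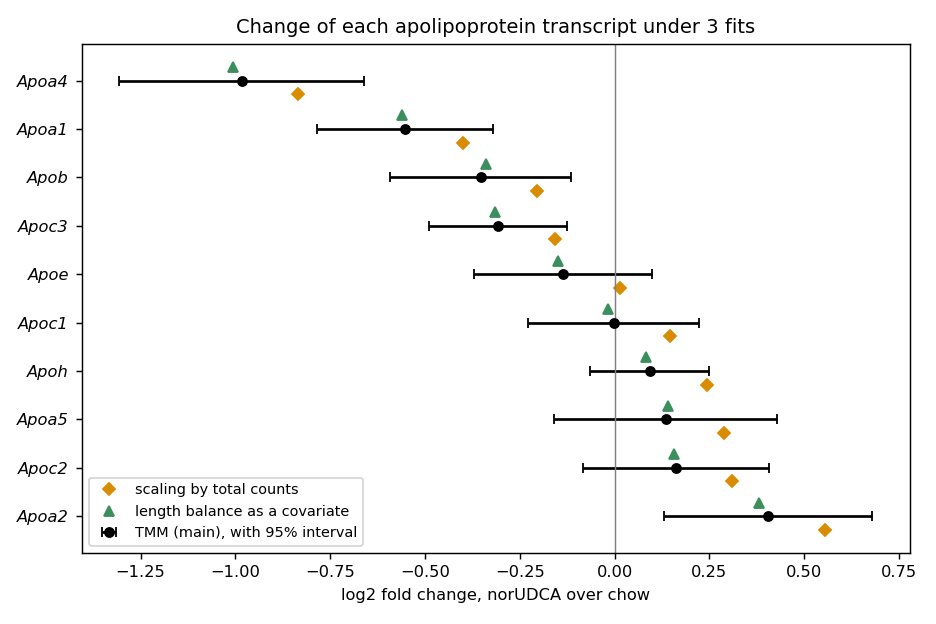
Log2 fold change, norUDCA over chow, of the 10 transcripts: black points with 95% intervals are the fit with TMM, orange diamonds the fit with scaling by total counts, and green triangles the fit with the length balance of each library as a covariate. The interval lies below 0 for Apoa4, Apoa1, Apob and Apoc3 and above 0 for Apoa2, and total-count scaling moves all 10 points to the right.

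Levels can be compared between genes only per length, as CPM per kilobase of gene model. With norUDCA the order was Apoa2 at 11778, Apoe at 11517, Apoc1 at 5785, Apoa1 at 5561, Apoc3 at 1812, Apoh at 1450, Apoa5 at 443, Apob at 332, Apoc2 at 220 and Apoa4 at 13.7 CPM per kilobase. On chow it was Apoe at 12656, Apoa2 at 8892, Apoa1 at 8163, Apoc1 at 5796, Apoc3 at 2242, Apoh at 1360, Apob at 424, Apoa5 at 404, Apoc2 at 197 and Apoa4 at 27.1 CPM per kilobase. With norUDCA the neighbours Apoa2 and Apoe, Apoc1 and Apoa1, and Apoa5 and Apob overlapped between libraries, and on chow Apoa2 and Apoa1, and Apob and Apoa5, overlapped. Apoa2 thus overlapped Apoe in norUDCA-fed livers and was below it in all 6 chow libraries. The other adjacent pairs in the order did not overlap in the 6 libraries of the diet.

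The 10 transcripts took 4.16 ± 0.358% of all counts with norUDCA and 4.15 ± 0.218% on chow (SD, n = 6 each). In CPM the sum was 39575 ± 3107 with norUDCA and 43748 ± 1654 on chow. Apoe held 40.3% of the summed counts with norUDCA and 40.0% on chow. Apoa2 took 0.642 ± 0.0982% with norUDCA and 0.437 ± 0.0762% on chow (SD, n = 6 each).

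Of the 10 genes, 7 lie in 2 clusters. Apoa1, Apoc3, Apoa4 and Apoa5 stand within 43.3 kb of chromosome 9, and there 3 of 4 fell with norUDCA while Apoa5 had a log2 fold change of 0.13 and did not pass. Apoc2, Apoc1 and Apoe stand, with Apoc4, within 27.6 kb of chromosome 7, and 0 of these 4 passed edgeR's test, also at an unadjusted p under 0.05 and by DESeq2 and limma-voom. Among 8 tested neighbours of the chromosome 9 cluster, 2 fell, the kinase gene Sik3 (-0.37, edgeR adjusted p = 0.00311) and Sidt2 (-0.32, adjusted p = 0.0117). EdgeR called 0 of them higher (1 at an unadjusted p under 0.05; 0 by DESeq2 and by limma-voom), and the median of the 8 was -0.13. Scaled by total counts, 1 of the 8 was higher and 1, Sik3, lower, beside 2434 higher and 565 lower of all 12378 tested genes. With TMM, edgeR called 8.62% of all tested genes lower and 6.73% higher. Zpr1 (-0.39, adjusted p = 0.0959) and Rnf214 (0.22, adjusted p = 0.144) did not pass. Among 6 tested neighbours of the chromosome 7 cluster 3 fell, Pvrl2 (-0.38, edgeR adjusted p = 0.0236), Clptm1 (-0.16, adjusted p = 0.0464) and the NF-kappa-B subunit gene Relb (-1.02, adjusted p = 0.0489), and Bcam (0.69, adjusted p = 0.121) did not pass. EdgeR called 0 of the 6 higher (1 at an unadjusted p under 0.05; 0 by DESeq2 and limma-voom). These 3 calls were weak, with 0 to 2 lower in the fits without a library, and scaling by total counts gave 1 higher and 0 lower.

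**Figure D4:**
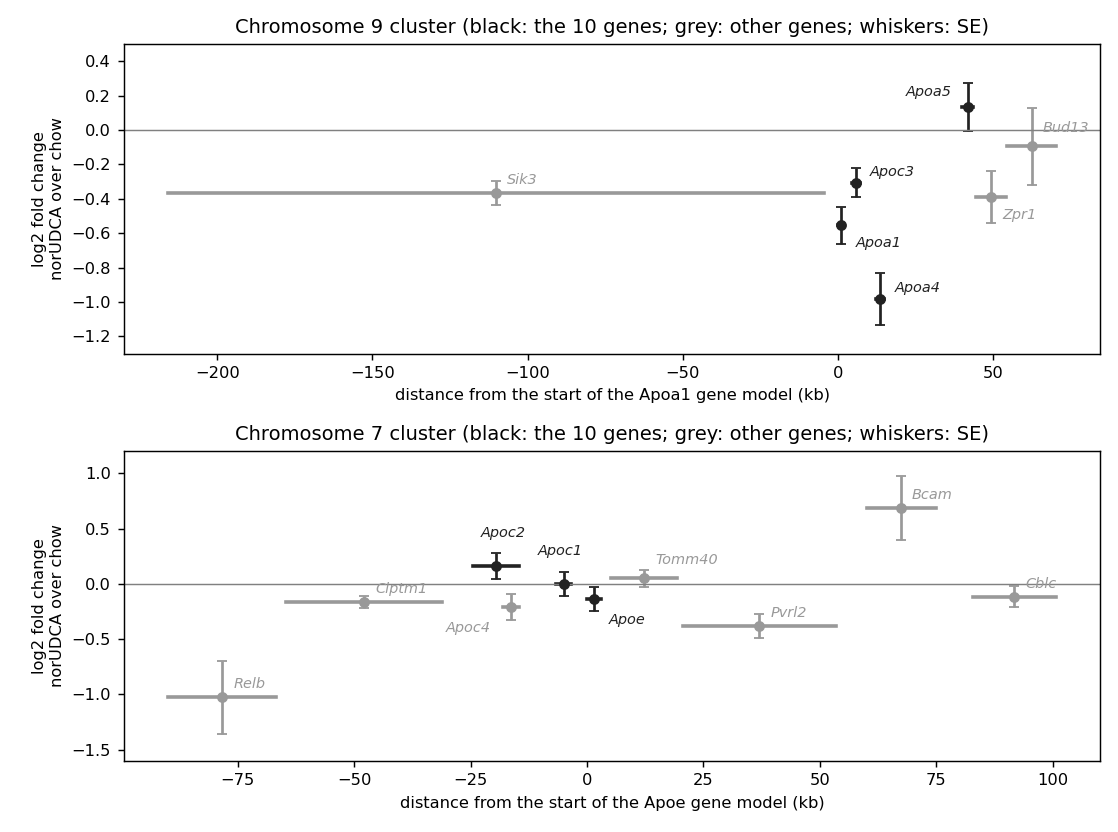
Log2 fold change, norUDCA over chow, against distance in kb from the start of the Apoa1 gene model (upper panel) and of the Apoe gene model (lower panel), with horizontal bars for the extent of each gene and whiskers for the SE. Apoa4, Apoa1 and Apoc3 lie between -0.98 and -0.31 beside Apoa5 at 0.13, whereas Apoc2, Apoc1 and Apoe lie between -0.14 and 0.16.

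Among 14 other tested apolipoprotein genes 7 fell and 1 rose, with a median log2 fold change of -0.38. Over all tested genes 8.62% fell and 6.73% rose. The serum amyloid A genes, whose products ride on HDL, fell: Saa3 (log2 fold change -3.13, edgeR adjusted p = 0.00254), Saa4 (-1.06, adjusted p = 0.00454), Saa1 (-3.52, adjusted p = 0.0132) and Saa2 (-3.95, adjusted p = 0.0164). Only for Saa3 did the diets not overlap: Saa1 ran from 32.3 to 567 CPM with norUDCA and from 526 to 9776 CPM on chow, and Saa2 from 10.1 to 465 CPM with norUDCA and from 331 to 10153 CPM on chow. Much of the size of the Saa1, Saa2 and Saa3 differences came from chow 2. Without it Saa1 was at -2.62 (edgeR adjusted p = 0.0275), Saa2 at -2.80 (adjusted p = 0.0359) and Saa3 at -2.21 (adjusted p = 0.000476), while Saa4 was at -0.94 (adjusted p = 0.00899). Saa1 and Saa2 are near-identical copies that may share reads. Apof, encoding an HDL and LDL protein that inhibits cholesteryl ester transfer in human plasma, averaged 442 ± 52.9 CPM with norUDCA and 670 ± 50.6 CPM on chow (SD, n = 6 each; -0.60, edgeR adjusted p = 0.000413). Apon (-0.52, adjusted p = 0.00302) and Clu, encoding clusterin (apoJ), were lower as well (-0.50, adjusted p = 0.00564), and Apol7a rose (0.58, adjusted p = 0.0304), a call lost in 5 of the 12 fits without a library (adjusted p up to 0.0694).

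Assembly of apoB particles gave a mixed picture, with 4 of 16 tested genes higher and 4 lower (median -0.00). The shares over all tested genes were 6.73% higher and 8.62% lower. Apobec1, the cytidine deaminase that edits the Apob mRNA so that the shorter apoB protein is made, fell to 14.4 ± 2.73 CPM with norUDCA, against 42.6 ± 9.46 CPM on chow (SD, n = 6 each; log2 fold change -1.56 ± 0.16, SE; edgeR adjusted p = 2.04e-05). Every norUDCA library, at 10.3 to 17.8 CPM, was below every chow library, at 31.0 to 54.8 CPM. A1cf, the RNA-binding cofactor of that editing enzyme, rose (0.50, adjusted p = 0.00327). Vmp1, encoding an endoplasmic reticulum protein needed for lipoprotein release, fell (-0.43, adjusted p = 0.00717), and Tm6sf2, which promotes lipidation of apoB particles, rose (0.40, adjusted p = 0.00789). Mttp, the triglyceride transfer protein that loads apoB with lipid, did not pass (-0.02, adjusted p = 0.911). With scaling by total counts 7 of the 16 were higher and 2, Apobec1 and Vmp1, lower. That scaling called 2434 of all 12378 tested genes higher and 565 lower. Editing of the Apob transcript itself cannot be read from gene counts.

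HDL formation and remodelling had 2 of 12 tested genes higher and 4 lower (median -0.04). Of all tested genes 6.73% were higher and 8.62% lower. Scarb1, the hepatic HDL receptor, fell (-0.59, edgeR adjusted p = 0.000839), and so did Abca1, the exporter that lipidates apoA-I (-0.50, adjusted p = 0.00236). Pltp, the phospholipid transfer protein, rose to 33.6 ± 6.62 CPM with norUDCA against 13.4 ± 5.47 CPM on chow (SD, n = 6 each; 1.32, adjusted p = 0.00171), and Pon1, encoding an HDL-bound esterase, rose (0.41, adjusted p = 0.0160). Bmp1, a protease that cleaves the apoA-I precursor (-0.29, adjusted p = 0.0270), and Lcat (-0.24, adjusted p = 0.0337) also fell, but neither passed when scaled by total counts, and without a library Bmp1 lost its call in 7 and Lcat in 9 of the 12 fits.

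Lipolysis and clearance genes included 1 of 14 that rose and 2 that fell (median 0.04). These counts stand beside 6.73% higher and 8.62% lower over all tested genes. Lrp1, the remnant receptor that binds apoE, fell (-0.54, edgeR adjusted p = 0.00658), as did Lmf1, a maturation factor of lipases (-0.28, adjusted p = 0.0137). With scaling by total counts 5 of the 14 were higher and 1, Lrp1, lower, beside 2434 higher and 565 lower of all 12378 tested genes. Vldlr was at 1.85 ± 0.434 CPM with norUDCA and 0.884 ± 0.677 CPM on chow (SD, n = 6 each; adjusted p = 0.0904).

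Known regulators of apolipoprotein genes had 4 of 28 tested transcripts higher and 2 lower (median 0.02), beside 6.73% and 8.62% of all tested genes. Ppara, the fatty acid-sensing receptor (0.66, edgeR adjusted p = 0.00171), Nr1h4, the bile acid receptor FXR (0.47, adjusted p = 0.00425), and Usf1 (0.34, adjusted p = 0.0279) were among those that rose. Hnf4a, the hepatocyte nuclear receptor known to drive many apolipoprotein genes, fell to 603 ± 47.6 CPM with norUDCA, against 734 ± 34.2 CPM on chow (SD, n = 6 each; -0.28, adjusted p = 0.0140). Rora fell too (-0.28, adjusted p = 0.0415). Without a library the call of Rora was lost in 10 and that of Usf1 in 5 of the 12 fits. With scaling by total counts 9 of the 28 were higher and 0 lower, Hnf4a and Rora no longer passing. Of all 12378 tested genes 2434 were then higher and 565 lower. These are transcript levels, and the activity of the factors was not measured.

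Plasma proteins that hepatocytes secrete beside the apolipoproteins fell in 18 of 33 tested cases and rose in 0, with a median of -0.37. In the 12 fits without a library 12 to 17 were lower and 0 higher. At an unadjusted p under 0.05 edgeR also put 0 of them higher, and DESeq2 and limma-voom called 0 higher. Over all tested genes edgeR called 8.62% lower and 6.73% higher. Serpina3k (-0.92, edgeR adjusted p = 5.44e-05), Serpina1a (-0.59, adjusted p = 0.000284), Itih1 (-0.63, adjusted p = 0.000424) and Trf (-0.76, adjusted p = 0.000853) had the smallest p. With scaling by total counts 14 of the 33 were lower and 0 higher, beside 565 lower and 2434 higher of all 12378 tested genes. The Serpina1 and Serpina3 genes have near-identical copies that may share reads. Alb was at 48907 CPM with norUDCA and 44283 CPM on chow (log2 fold change 0.14, adjusted p = 0.512), and Ttr differed by -0.00 (adjusted p = 0.998).

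Marker lists of the cell types that liver tissue can hold were counted beside these results. EdgeR called 6.73% of all tested genes higher and 8.62% lower. The hepatocyte list summed to 75833 to 90478 CPM with norUDCA and 68841 to 93582 CPM on chow. Most of that was Alb, which averaged 48907 CPM with norUDCA and 44283 CPM on chow. Of the 9 members of the list Apoa2 rose and Tat fell. Apoa2 is also 1 of the 10 transcripts examined, so the list is not independent of them. Of 10 tested Kupffer cell and macrophage markers 5 fell, among them Clec4f (-0.83, edgeR adjusted p = 0.0167). The sum of the 10 was 110 to 262 CPM with norUDCA and 184 to 441 CPM on chow. Without a library the call of C1qb was lost in 9, that of Csf1r in 8 and that of Cd5l in 4 of the 12 fits. The calls of Clec4f and Vsig4 were lost in 0. Stellate cell markers had 2 of 7 higher, Reln and Col1a1 (sum 146 to 214 CPM with norUDCA, 107 to 201 CPM on chow). The call of Col1a1 was lost in 8 and that of Reln in 2 of the 12 fits without a library. Cholangiocyte markers had 2 of 5 lower, Sox9 and Spp1 (sum 32.7 to 41.0 CPM with norUDCA, 32.8 to 102 CPM on chow), and limma-voom called 1. Spp1 alone averaged 28.5 CPM with norUDCA and 53.6 CPM on chow. Krt7 (-0.09), Krt19 (0.31) and Epcam (0.16) did not pass. Red cell markers had 1 of 5 lower (210 to 300.3 CPM with norUDCA, 242 to 390 CPM on chow). Endothelial markers had 0 of 6 called by edgeR, DESeq2 or limma-voom (1 lower at an unadjusted p under 0.05, sum 85.8 to 132 CPM with norUDCA, 87.5 to 143 CPM on chow). The pancreatic list had Cela1 lower, while Cpa1 was at 0 in every library. Lymphocyte markers summed to under 3 CPM in each library and had no tested member. Of the enterocyte and adipocyte lists, 0 members passed by edgeR, at an unadjusted p under 0.05, or by DESeq2 or limma-voom. The part of the other cell types in the apolipoprotein changes was not tested.

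The spread between libraries was also set beside gene length. Apoa2 (518 bases) and Apoc1 (487 bases) have short gene models and Apob (13934 bases) a long one. For each library, the median log2 deviation of 1576 long genes (over 5000 bases) was subtracted from that of 202 short genes (up to 800 bases), all averaging 10 CPM or more. This length balance ran from -0.27 in norUDCA 9 to 0.25 in norUDCA 12, and from -0.16 in chow 2 to 0.15 in chow 17. Its mean was 0.0117 ± 0.202 with norUDCA and -0.00892 ± 0.103 on chow (SD, n = 6 each; two-sided exact permutation p = 0.818). The libraries with the lowest balance of each diet, norUDCA 9 and chow 2, had the lowest Apoa2 and the highest Apob of their diet. With the balance as a covariate, a fit added after the data had been seen, all 5 calls were kept: Apoa2 at 0.38 (edgeR adjusted p = 0.0103), Apob at -0.34 (adjusted p = 0.0362), Apoc3 at -0.31 (adjusted p = 0.0131), Apoa1 at -0.56 (adjusted p = 0.00417) and Apoa4 at -1.01 (adjusted p = 0.000432).

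**Figure D5:**
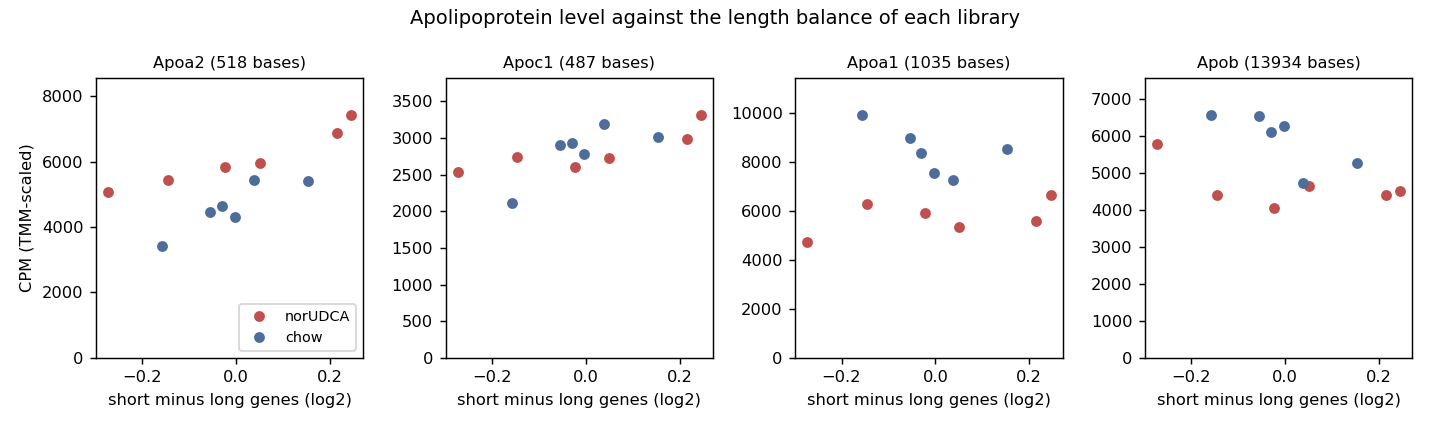
CPM (linear axis from 0) of Apoa2, Apoc1, Apoa1 and Apob in each library against the length balance of that library, the median log2 deviation of short genes minus that of long genes. The norUDCA libraries span -0.27 to 0.25 and the chow libraries -0.16 to 0.15 on the horizontal axis, and Apoa2 is higher at the right while Apob is higher at the left.

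Library-to-library variation was shared by some of the 10 transcripts. With log2 CPM centred within each diet over the 12 libraries, Pearson r was 0.93 between Apoa2 and Apoc1, 0.85 between Apoa2 and Apoc3, 0.84 between Apoc1 and Apoc3 and 0.82 between Apoc3 and Apoe. It was -0.68 between Apob and Apoe and -0.67 between Apob and Apoa2, and -0.08 between Apoa1 and Apoa2. These are descriptions over libraries that differ in depth and length balance, and they carry no p. Among 7248 genes averaging 10 CPM or more, those most like Apoa2 by this measure were Cox6a1 (0.98), Ndufa7 (0.97) and Rdh7 (0.97), the first and second being subunits of the respiratory chain. For Apob they were Wdr13 (0.92), Kpna1 (0.91) and Chd8 (0.91), for Apoa1 Nrn1 (0.90), Rpl14 (0.87) and Pik3r4 (0.87), for Apoa4 E130309D02Rik (0.96), Bnip3l (0.88) and Wipi2 (0.86), and for Apoc3 Hpgd (0.97), Hsbp1 (0.97) and Apoc4 (0.95).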

How the data were processed

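For 12 Illumina libraries (NEBNext), total RNA was isolated from frozen liver with TRIzol. CASAVA, STAR and DESeq2 are named in the submitters' processing notes. Their versions, the genome build, the counting tool and its use of strand were not given in the sources used here. Raw read counts per gene and library were deposited by the authors, with a gene length in bases and a position. Of 35275 gene identifiers 34490 were found in GENCODE M21 (GRCm38), and 24919 (72.2%) had the same position there, among them 7 of the 10 apolipoprotein genes. Further deposited tables hold the authors' own comparisons (fold changes and p-values, some for a group the labels do not define) and were not used.

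Counts were tested with edgeR 4.0.16 (R 4.3.3; quasi-likelihood F test, TMM, filterByExpr, no covariate), with Benjamini-Hochberg adjustment over 12378 genes. The 95% intervals use the t distribution of that fit and cover the spread between libraries. DESeq2 1.42.0, limma-voom (limma 3.58.1), other scalings, no filter, and fits without each library were alternatives. The edgeR script was tested on simulated counts. Ratios of counts were compared by two-sided exact permutation tests. RefSeq promoter windows were read by gene symbol and scanned for motifs.

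The 10 genes, the gene lists and the markers were chosen with earlier results of these data known. All 10 genes were named, as were, for each list, the 4 members of smallest p, every called member of a list with 5 or fewer calls, and the 3 genes most correlated with each called apolipoprotein. Clu, Saa1, Saa2, Apol7a, Mttp, Bmp1, Lcat, Usf1, Rora, Alb, Ttr and the single markers were named after their values were seen. Of the genes this rule took, 2 are not reported here.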

Additional observations from a re-analysis of the deposited data

Results flagged for a closer look

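In 4 of 44 groups of 6 libraries a single library stood apart from the rest by Dixon's criterion (its gap to the nearest library, as a share of the range), where chance gives about 1 in 20 groups. Apob read 5775 CPM in norUDCA 9, with a gap of 0.658 of the range, and the Apob over Apoa1 ratio of counts was 1.22 in the same library (0.648 of the range). That library also had the lowest length balance, -0.27. Apoc3 read 1423 CPM in norUDCA 20, with a gap of 0.6251 of the range, just past the critical value. Apoc2 over Apoa1 was 0.0108 in chow 2 (0.787 of the range), the library with the highest Saa1 and Apoa1 levels on chow.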

How the results depend on the processing

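Apoa1 and Apoa4 passed in all 20 alternative fits, at -0.59 to -0.40 and -1.15 to -0.83 on the log2 scale. With scaling by total counts 2434 genes were higher and 565 lower (833 and 1067 with TMM), 2 apolipoproteins were higher and 2 lower, and 27 genes of the lists were higher and 27 lower (12 and 42 with TMM). There Apob was -0.20 (adjusted p = 0.1804), Apoc3 -0.16 (0.220), Apoc1 0.15, Apoe 0.0136 and Apoh 0.24 (0.0309). Apob was -0.32 (0.0602) with upper quartile scaling and -0.34 (0.0508) with TMM without the 50 most abundant genes. Without the filter 0 apolipoproteins were higher and 2 lower, with Apoa2 at 0.42 (0.0540), Apob at -0.34 (0.0790) and Apoc3 at -0.29 (0.0655). Apoc1, never called, turned positive with DESeq2's size factors (0.0041), upper quartile scaling (0.0279), TMM without the top genes (0.0092), no filter (0.0127), DESeq2 (0.0038) and limma-voom (0.0031). The cause was not tested.

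Without a single library, 0 to 1 apolipoproteins were higher and 2 to 4 lower, Apoa2 ranged over 0.33 to 0.47, Apob over -0.41 to -0.30, Apoc3 over -0.36 to -0.27 and Apoc1 over -0.072 to 0.041. Apoa2 passed without norUDCA 9, chow 3 or chow 17, and so did Apob; Apoc3 passed without norUDCA 20, chow 2, chow 3 or chow 16. Such fits have fewer samples. Apoc1 over Apoe ranged over 0.10 to 0.18 and passed without norUDCA 10 (0.18, exact permutation, adjusted p = 0.0476), and Apoa4 over Apoa1 ranged over -0.62 to -0.38 and passed without norUDCA 20 (adjusted p = 0.0198). The 6 ratios that passed did so without each library in turn. No paired analysis was possible because the replicate numbers of the diets do not overlap.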

Other observations

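Of the 15 genes most like a called apolipoprotein across libraries, 4 passed the diet test themselves (Hpgd, Chd8, Kpna1 and Wdr13). Of all tested genes 15.3% passed it. Hpgd, encoding the enzyme that inactivates prostaglandins, followed Apoc3 within the diets (r = 0.97) and yet rose by 1.34 on the log2 scale with norUDCA (edgeR adjusted p = 0.000354), whereas Apoc3 fell by 0.31. Chd8, which followed Apob (0.91), rose by 0.31 (adjusted p = 0.00383), and Kpna1, which followed Apob as well (0.91), fell by 0.41 (adjusted p = 0.00209). Cox6a1, the closest to Apoa2 (0.98), had a log2 fold change of 0.02 (adjusted p = 0.922).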
